A study of Sus scrofa with 16 samples.

Results

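The natriuretic peptide genes NPPA and NPPB, the cardiac transcription factor genes NKX2-5, HAND1 and HAND2, and the cardiac myosin-binding protein gene MYBPC3 were examined in maps of accessible chromatin from newborn pig tissues and from pig liver of 3 ages. These 6 genes were chosen by name as cardiac genes, with earlier results of these data known, out of 19560 protein-coding genes that RefSeq annotates on chromosomes of the Sscrofa11.1 assembly. A peak was assigned to a gene's promoter where it overlapped the span from 2.2 kb upstream to 500 bp downstream of an annotated start site by at least 1 bp. A peak was assigned to a gene's window where it overlapped the gene body or the 25 kb on either side. NPPA and NPPB lie 9.03 kb apart and share 1 window, so that the 6 genes gave 5 windows.

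Accessibility was measured by ATAC-seq, in which a transposase cuts and tags DNA that nucleosomes do not cover, in 16 libraries of whole tissue. The newborn groups, labelled day 0, were heart, skeletal muscle (longissimus dorsi), lung, kidney, spleen and liver, and liver was also taken from suckling pigs at 28 days and from adult pigs at 180 days. All animals were female crossbred domestic pigs, described as full-sib Berkshire × Tibetan hybrids, with 2 animals per age, and neither a treatment nor a genetic modification is named for any group. The same 2 newborn pigs gave all 6 tissues, so the newborn libraries share animals, and the part of the heart that was sampled is not stated.

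NPPA encodes atrial natriuretic peptide and NPPB encodes B-type natriuretic peptide, hormones that heart muscle cells release when the chambers are stretched and that act on the kidney and blood vessels to lower blood volume and pressure. NKX2-5 is a homeobox factor of the earliest cardiac progenitors that is also known from the development of the spleen. HAND1 and HAND2 are basic helix-loop-helix factors named for the heart and neural crest derivatives, and HAND2 is also used in limb buds and in sympathetic neurons. MYBPC3 encodes a protein of the thick filament in the cardiac sarcomere, the contractile unit of the heart muscle cell. An accessible promoter is the usual state of a gene that can be transcribed, while accessible regions at a distance often hold enhancers.

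Each tissue or stage is represented by 1 deposited list of peaks that were matched between its 2 replicates, and the lists held between 57126 peaks in skeletal muscle and 141689 peaks in suckling liver, with 72920 in heart. A peak carries a −log10 p in each replicate, which grows with sequencing depth. Strengths were therefore compared between lists only as the percentile of the smaller of the 2 values among all peaks of the same list, where 100 is the strongest. The IDR, the irreproducible discovery rate, is low where both replicates rank a peak both high and alike. A weak peak can therefore have a high IDR although its replicates agree. Of the heart peaks, 19.9% had an IDR of 0.05 or lower. Since a list holds only matched peaks, its replicate values are not independent, and 1 heart list against 5 other newborn lists cannot give an exact p below 0.167, so no test was run and the values are descriptions. In the heart list, 67.9% of all protein-coding genes had a promoter peak, as did 8 of 9 matched cardiomyocyte markers and 5 of 5 endothelial markers. So did 3 of 5 fibroblast, 3 of 5 spleen stroma, 2 of 4 skeletal muscle and 2 of 5 erythroid markers. The counts were 1 of 5 for liver, 1 of 5 for lung epithelium, 0 of 5 for kidney and 0 of 5 for blood and immune markers. Every list but skeletal muscle (2 of 5) also had 5 of 5 endothelial markers. Of the 9 matched cardiomyocyte markers, kidney had a promoter peak at 6 (75.1% of all genes). Lung (70.4%), newborn liver (73.5%) and suckling liver (74.8%) had one at 5 each. Spleen (68.8%) and adult liver (69.7%) had one at 4 each, and skeletal muscle (61.4%) at 3. The cardiomyocyte markers TNNI3 and ACTN2 had a promoter peak in all 8 lists. Of the skeletal muscle markers, MYOD1 and MYF5 had none in heart, but both had promoter peaks in lung, kidney and newborn liver besides muscle. ACTN3 was at percentile 97.4 in heart and 30.7 in muscle, and CKM at 33.9 and 57.0. In whole tissue, fewer cells of a type and less accessible chromatin per cell cannot be told apart.

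The reference sequences below lie under heart peaks, and are shown because the presence or absence of these peaks is what separates the lists. Each comes from the RefSeq copy of Sscrofa11.1 and is read 5′ to 3′ along the strand of the named gene. For the promoters it ends at the base before the most upstream annotated start site, and for HAND2 it is the intergenic part of the peak. Capitals mark every match on either strand to AGATAA (the GATA motif), CACTTNA (NKX2), GGTGTGA (T-box), CATCTG (the E-box bound by HAND factors), GGAATG (TEAD) and to the MEF2 and SRF CArG-box motifs, 7 motifs of heart regulators searched as fixed letters. The last sequence is 200 bp around the summit of the strongest heart-only peak between genes.
NPPA, chr6:71921346-71921595, minus strand: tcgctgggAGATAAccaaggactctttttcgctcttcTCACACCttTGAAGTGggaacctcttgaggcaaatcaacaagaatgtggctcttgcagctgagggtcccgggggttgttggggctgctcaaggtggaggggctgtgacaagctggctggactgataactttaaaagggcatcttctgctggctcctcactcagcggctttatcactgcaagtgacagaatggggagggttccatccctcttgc
NPPB, chr6:71931844-71932093, minus strand: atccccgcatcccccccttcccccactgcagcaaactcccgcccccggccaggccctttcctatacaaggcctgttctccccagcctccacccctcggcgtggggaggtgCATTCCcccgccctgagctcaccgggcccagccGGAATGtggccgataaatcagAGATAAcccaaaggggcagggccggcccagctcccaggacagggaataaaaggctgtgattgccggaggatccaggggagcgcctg
NKX2-5, chr16:51085764-51086013, plus strand: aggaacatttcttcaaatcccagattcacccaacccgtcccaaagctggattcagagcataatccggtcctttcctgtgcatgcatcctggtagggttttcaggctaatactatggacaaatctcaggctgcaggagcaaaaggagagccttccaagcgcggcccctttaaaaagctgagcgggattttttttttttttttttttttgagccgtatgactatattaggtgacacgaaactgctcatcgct
HAND1, chr16:68679727-68679976, plus strand: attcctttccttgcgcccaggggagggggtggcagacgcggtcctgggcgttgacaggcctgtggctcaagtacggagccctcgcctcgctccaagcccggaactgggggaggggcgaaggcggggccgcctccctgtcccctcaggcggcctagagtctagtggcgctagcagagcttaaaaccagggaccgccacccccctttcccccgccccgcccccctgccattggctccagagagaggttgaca
HAND2, chr14:16459217-16459460, plus strand: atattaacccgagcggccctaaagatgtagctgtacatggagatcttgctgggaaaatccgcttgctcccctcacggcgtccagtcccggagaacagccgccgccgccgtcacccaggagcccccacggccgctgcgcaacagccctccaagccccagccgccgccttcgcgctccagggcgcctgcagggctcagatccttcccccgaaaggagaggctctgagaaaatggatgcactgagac
MYBPC3, chr2:15247473-15247678, plus strand: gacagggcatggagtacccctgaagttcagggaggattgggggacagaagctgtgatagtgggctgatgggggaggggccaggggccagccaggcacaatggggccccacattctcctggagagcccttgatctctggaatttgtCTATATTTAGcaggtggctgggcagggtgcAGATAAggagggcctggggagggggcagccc
Intergenic peak upstream of NPPB, chr6:71943904-71944103, minus strand: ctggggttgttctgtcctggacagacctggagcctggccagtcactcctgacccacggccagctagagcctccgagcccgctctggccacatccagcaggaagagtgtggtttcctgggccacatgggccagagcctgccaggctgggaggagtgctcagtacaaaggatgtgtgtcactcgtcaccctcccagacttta

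All 6 genes had a promoter peak in newborn heart, and no other list had a promoter peak at more than 3 of them. In heart 67.9% of all protein-coding genes had a promoter peak, so the heart count alone says little, and the other lists carry the contrast. Newborn spleen had a promoter peak at 3 of the 6 genes (NKX2-5, HAND1 and HAND2; 68.8% of all genes). Newborn lung (70.4% of all genes) and newborn kidney (75.1%) each had them at 2, NPPB and MYBPC3, and suckling liver (74.8%) at 2, NPPB and HAND1. Newborn skeletal muscle (61.4%), newborn liver (73.5%) and adult liver (69.7%) each had a peak at 1 of the 6, namely MYBPC3, HAND1 and HAND2.

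**Figure D1:**
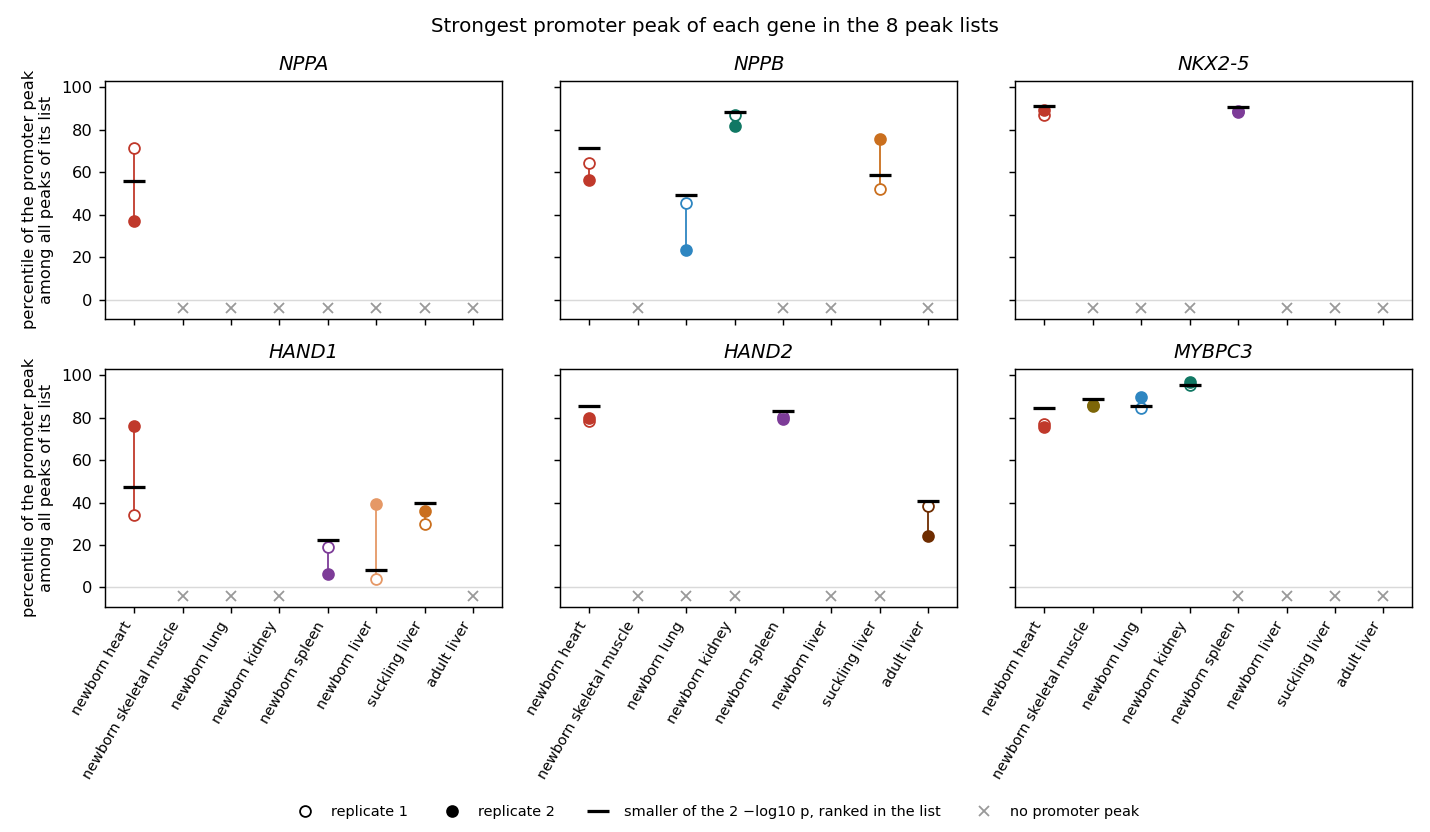
Percentile, among all peaks of the same list, of the strongest promoter peak of each gene in the 8 lists (100 = strongest). Open and filled circles are replicates 1 and 2, bars rank the smaller of their −log10 p values, and crosses mark lists without a promoter peak: all 6 genes have a heart peak, while NPPA has a peak in no other list.

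None of the 6 genes had a promoter peak in all 6 newborn lists, which 57.6% of all protein-coding genes had, or 84.8% of the 13279 genes with a promoter peak in heart. The 6 genes reached between 1 newborn list (NPPA) and 4 newborn lists (MYBPC3), and only 6.87% of the genes with a heart promoter peak reached 4 or fewer. A promoter peak in heart without any in skeletal muscle was found at 5 of the 6, MYBPC3 being the exception, and at 8.0% of all genes. By strength the heart peaks did not stand out, and all but that of NKX2-5 lay below the middle. Ranked among the strongest promoter peaks of the 13279 genes, those of HAND1, NPPA and NPPB lay at percentiles 19.1, 23.5 and 33.9, those of MYBPC3 and HAND2 at 47.5 and 48.9, and that of NKX2-5 at 60.5. An IDR of 0.05 or lower was reached at NKX2-5, HAND2 and MYBPC3, 3 of the 6 genes, and at 38.8% of all genes.

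NPPA (chr6:71919557-71921345, minus strand) had the most restricted promoter. Its heart peak (chr6:71921056-71921951) covered both annotated start sites, had its summit at −292 bp, and was overlapped by no peak of any other list. The −log10 p values were 16.2 in replicate 1 and 7.85 in replicate 2, which are percentiles 71.2 and 36.9 of the heart list, and the IDR was 0.381. The replicates thus ranked this peak differently, and it is lost where an IDR of 0.05 or lower is required. A promoter peak in heart and in no other newborn list was found at 59 genes, 0.302% of all genes, and NPPA was the only one of the 6 genes among them.

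The promoter peaks of NPPB (chr6:71930374-71931843, minus strand) covered different spans of the same promoter. The heart peak (chr6:71931552-71932520) was 969 bp long, covered the start site and had its summit at −155 bp, with −log10 p of 13.2 and 11.5. The kidney peak (chr6:71932158-71932587) was 430 bp long with −log10 p of 23.7 and 26.4, the lung peak (chr6:71932181-71932429) 249 bp long with 5.78 and 8.96, and the suckling liver peak (chr6:71932135-71932480) 346 bp long with 7.98 and 24.5. These 3 peaks overlapped the upstream part of the heart peak, had summits at −555, −447 and −480 bp, and did not reach the start site. In kidney the peak ranked at percentile 88.6 of its list, above the heart peak at 71.5, whereas lung and suckling liver were at 49.4 and 58.7. The sequence printed for NPPB lies between these upstream summits and the start site, in the part that only the heart peak covered among the 8 lists.

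NKX2-5 (chr16:51086014-51089165, plus strand) had the strongest heart promoter peak of the 6 genes. The heart peak (chr16:51085719-51086353) had −log10 p of 30.9 and 37.9, percentile 91.0 and an IDR of 0.00747, with its summit 44 bp past the start site. The spleen peak (chr16:51085835-51086478) had −log10 p of 42.9 and 73.0, percentile 90.7 and an IDR of 0.00415, with its summit at −30 bp. The peaks shared 519 bp, and the other 6 lists had no promoter peak at this gene. The spleen list also had a promoter peak at 5 of 5 spleen stroma markers, NKX2-5 being among these markers.

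HAND2 (chr14:16460089-16462979, plus strand) shared this heart and spleen pattern. Its heart peak (chr14:16459083-16459460) had −log10 p of 20.8 and 23.5 at percentile 85.4, the spleen peak (chr14:16459091-16459490) had 23.4 and 40.3 at percentile 83.1, and the adult liver peak (chr14:16459075-16459371) had 11.9 and 10.6 at percentile 40.9. All 3 lie at about the same place, with summits at −849, −802 and −872 bp, and cover the 5′ end of LOC100517194, an uncharacterized protein-coding gene on the opposite strand whose body ends at position 16459216. The peak therefore cannot be assigned to either of the 2 genes alone. No list had a peak over the annotated start site of HAND2, and spleen had a second, weak promoter peak (chr14:16460355-16460626) with −log10 p of 7.78 and 3.45. Of the 6 newborn lists, heart and spleen alone had a promoter peak at NKX2-5 and HAND2, and at 20 genes in all, 0.102% of all genes.

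HAND1 (chr16:68679977-68683346, plus strand) had the lowest percentile in heart when each of the 6 genes is taken by its strongest promoter peak, and it lies within an intron of LOC110257270, a long non-coding RNA gene of the opposite strand. The heart peak (chr16:68679648-68680611) had −log10 p of 6.72 and 20.0, percentile 47.5 and an IDR of 0.421, covered the start sites and had its summit at 84 bp. The spleen peak (chr16:68680270-68680560) lay inside its downstream part, with −log10 p of 5.04 and 5.0 and percentile 22.4. The newborn liver peak (chr16:68679025-68679132; −log10 p of 3.82 and 7.12, percentile 8.03) and the suckling liver peak (chr16:68678867-68679220; 5.65 and 7.55, percentile 40.0) lay 515 and 427 bp upstream of the heart peak and did not overlap it. A promoter peak at HAND1 thus meant a different segment of DNA in liver than in heart.

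MYBPC3 (chr2:15247679-15269714, plus strand) was named by the study itself from these peak lists, so its heart-only peak is not independent evidence. Of its 2 heart promoter peaks, the stronger (chr2:15247473-15247792) covered the start sites, had its summit at −26 bp, and had −log10 p of 19.8 and 19.7 at percentile 84.5, with an IDR of 0.0299. The weaker (chr2:15246499-15246694) had its summit at −1105 bp and −log10 p of 6.27 and 6.87 at percentile 42.5. Neither was overlapped by a peak of any other list. The promoter calls in skeletal muscle, lung and kidney came from another region, with summits between −2898 and −2887 bp inside an intron of the neighbouring gene SPI1, which encodes a transcription factor of blood cells. These peaks reached into the MYBPC3 promoter span by 47, 25 and 16 bp and ended 973 to 1004 bp short of the nearer heart promoter peak. All 8 lists, heart included, had a peak in that region of SPI1, with percentiles between 85.3 in lung and 95.6 in kidney.

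With the promoter set to 1000 bp upstream to 100 bp downstream, the heart list still had a peak at all 6 genes (64.0% of all genes), while skeletal muscle had a peak at none (58.1%). In that narrower span the calls of muscle, lung and kidney at MYBPC3 and of spleen at HAND1 were lost, and lung and kidney then had a peak at NPPB alone. Peaks that none of the 5 other newborn tissues overlapped are called heart-only from here on. A heart-only promoter peak was found at 2 of the 6 genes, NPPA and MYBPC3, and at 337 genes or 1.72% of all genes. Of these 2, MYBPC3 is the gene that the study itself named from these lists. The count became 4, with NPPB and HAND1 added, where an overlap had to cover 50% of a peak (2.4% of all genes), and 1 (MYBPC3) with the IDR limit of 0.05 (0.731%). With all lists shortened to the same number of top peaks it was 3, HAND1 joining NPPA and MYBPC3 (2.24%), and the same 3 genes were found when the shortened lists were ranked by either replicate alone.

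The windows were then compared with promoter peaks included. The 5 windows held 36 heart peaks, of which 7 lay in promoters of the 6 genes, and 11 of the 36 had an IDR of 0.05 or lower. Of the 36 peaks, 13 were heart-only (36.1%), against 17.4% of all heart peaks. The window of MYBPC3, the gene that the study itself named from these lists, gave 11 of the 36 and 6 of the 13. Every window had a heart peak, as 89.1% of all gene windows had, and 4 of the 5 had a heart-only peak, as 31.8% of all gene windows had. Over the same 5 windows skeletal muscle had 5 peaks, lung 13, kidney 25, spleen 33, and newborn, suckling and adult liver 27, 32 and 30. The lists differ in length, and the median window of all genes held 4 peaks in heart, 3 in skeletal muscle and 5 in lung. It held 7 in kidney, 5 in spleen, and 7, 8 and 6 in newborn, suckling and adult liver. Skeletal muscle had no peak at NKX2-5 or HAND1, where 84.8% of all gene windows held a peak in muscle. Adult liver had no peak at NKX2-5, where 90.5% of all gene windows held a peak in adult liver.

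**Figure D2:**
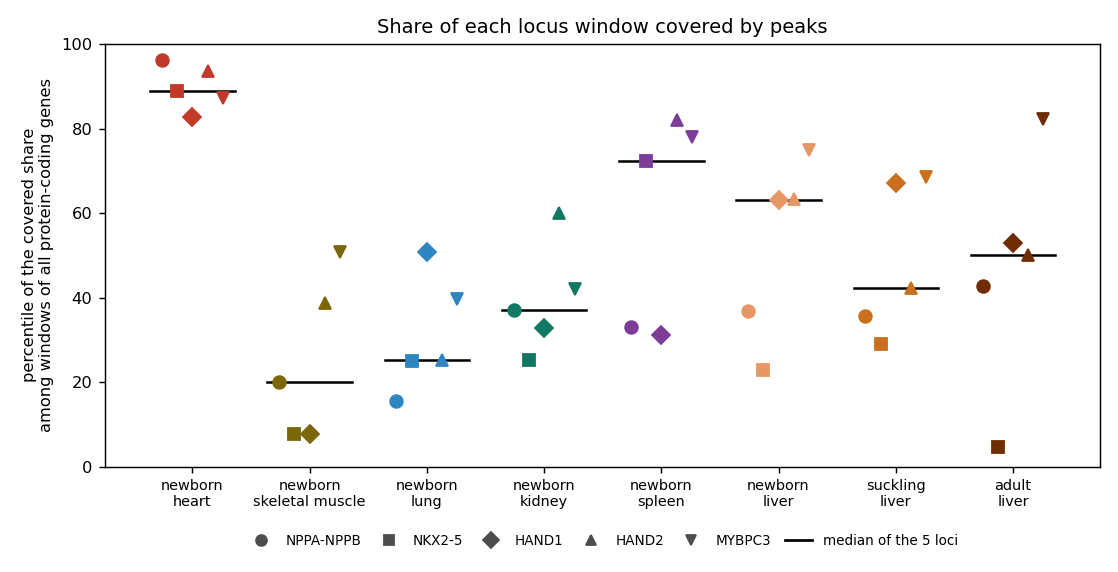
Share of each of the 5 windows covered by peaks, given as its percentile among the windows of all protein-coding genes in the same list. Symbols are loci and black lines are medians of the 5 loci: heart lies between 82.7 and 96.3, with a median of 88.9, and the other medians lie between 19.9 in skeletal muscle and 72.4 in spleen.

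The share of a window covered by peaks was ranked among the windows of all protein-coding genes of the same list, which removes the length of the list. In heart the NPPA-NPPB window ranked at percentile 96.3, HAND2 at 93.7, NKX2-5 at 88.9, MYBPC3 at 87.2 and HAND1 at 82.7, the last being 16.9 with the IDR limit of 0.05, which left HAND1 no heart peak. In skeletal muscle the same windows ranked between 7.62 (NKX2-5 and HAND1) and 50.7 (MYBPC3). Spleen was high at HAND2 (82.1), MYBPC3 (78.0) and NKX2-5 (72.4) and low at NPPA-NPPB (33.0) and HAND1 (31.2). The NPPA-NPPB window was at 42.7 or lower in all 7 other lists, while the MYBPC3 window, which holds all of SPI1 and part of MADD, reached 82.2 in adult liver.

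**Figure D3:**
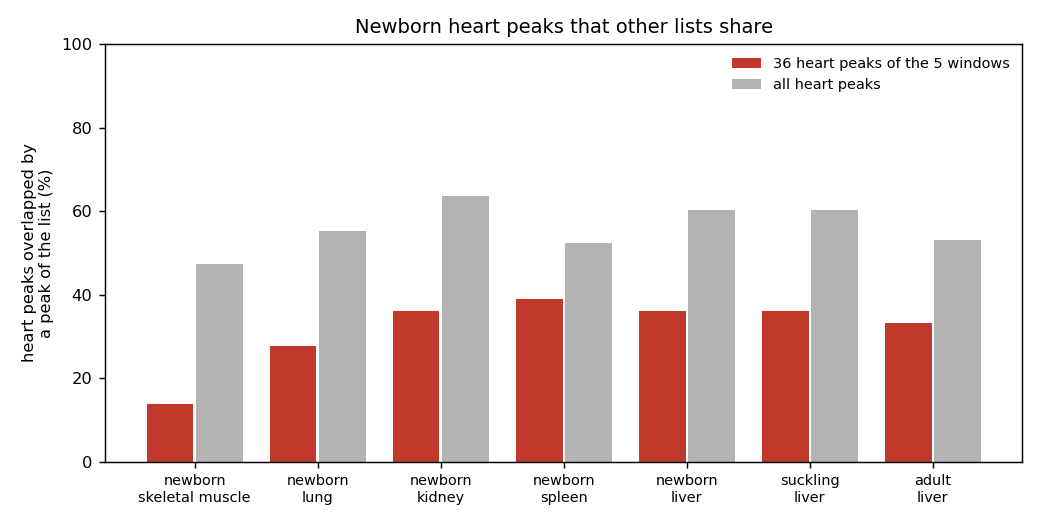
Percent of newborn heart peaks overlapped by a peak of each other list by at least 1 bp, for the 36 heart peaks of the 5 windows (red) and for all heart peaks (grey). The red bars lie between 13.9% in skeletal muscle and 38.9% in spleen, each below the grey bar of its list.

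Of the 36 heart peaks in the windows, skeletal muscle shared 5 (13.9%), against 47.3% of all heart peaks. Lung shared 27.8% (55.2% of all heart peaks), kidney 36.1% (63.5%), spleen 38.9% (52.4%) and newborn liver 36.1% (60.3%). The difference between window and background was thus smallest for spleen and largest for muscle. Joined over all 8 lists, the peaks formed 76 regions, of which 4 were found in all 8 lists, 37 in a single list and 12 in the heart list alone. The 4 regions found in every list were 3 in the MYBPC3 window, inside SPI1 and MADD, and 1 at HAND2.

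**Figure D4:**
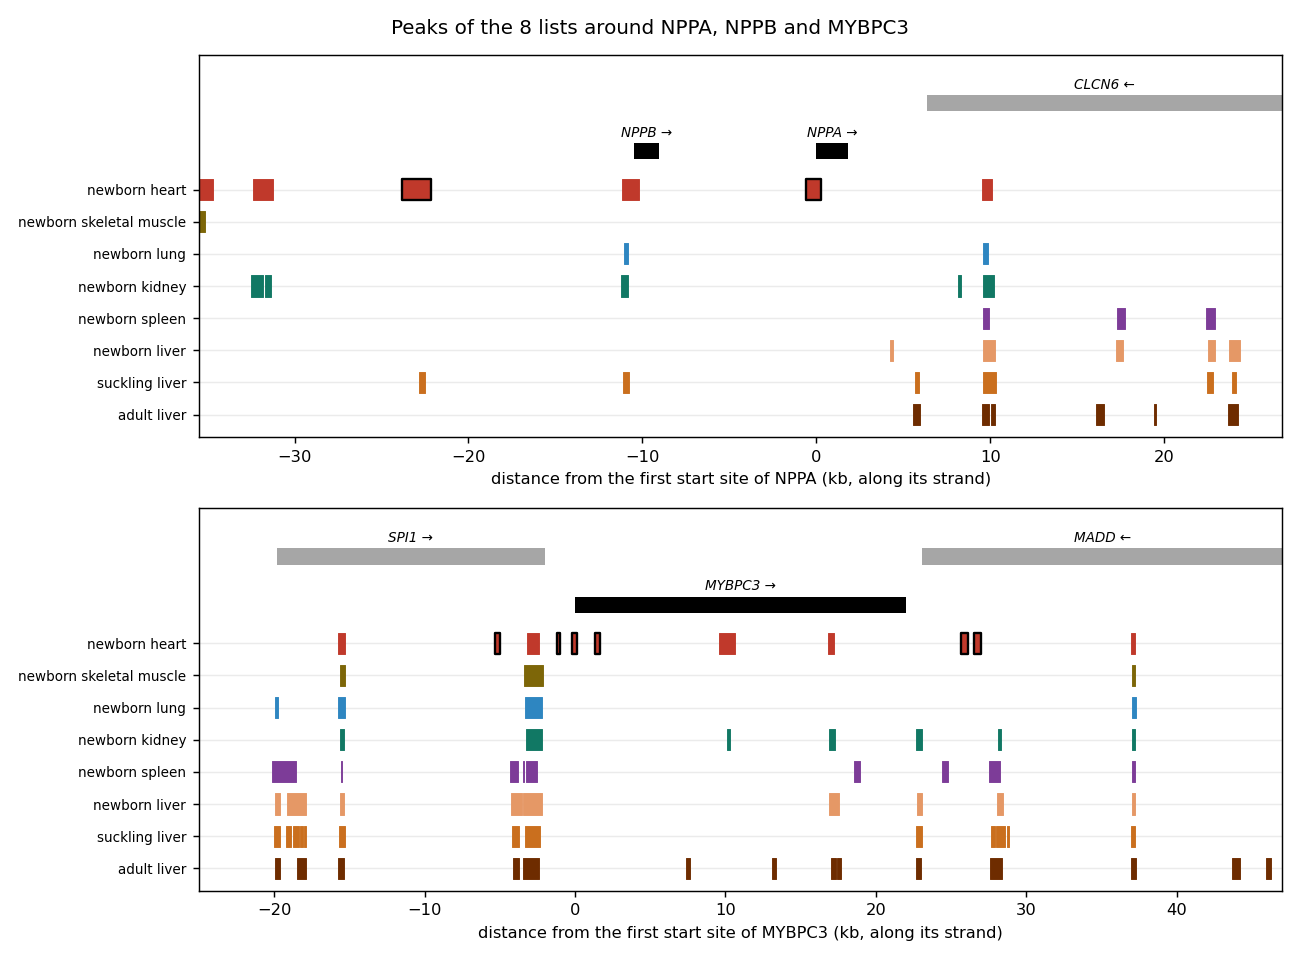
Peaks of the 8 lists (coloured blocks, 1 row per list) in the windows of NPPA-NPPB and MYBPC3, placed by distance in kb from the first start site of NPPA or MYBPC3 along its strand. Black bars are the 3 genes, grey bars are neighbouring genes with their direction, and a black frame marks the 2 heart-only peaks of the upper window and the 6 of the lower.

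Upstream of NPPB the heart list had 3 distal peaks between genes, each overlapped by a single other list. The heart-only peak at −12.2 kb from NPPB (chr6:71943527-71945182) was the widest of the locus at 1656 bp, with −log10 p of 21.7 and 70.0 and percentile 86.0, and its central sequence is printed above. It is heart-only among the newborn lists, and suckling liver had a peak inside it (chr6:71943872-71944212) with −log10 p of 6.5 and 6.58 at percentile 48.5. The peak at −21.0 kb (chr6:71952601-71953719; −log10 p of 17.6 and 40.1) was shared with kidney, whose strongest peak of the window (24.2 and 32.3) lay there. The peak at −24.6 kb (chr6:71956033-71956885; 18.8 and 34.1) was shared with skeletal muscle, whose only peak of the window (5.64 and 5.03, percentile 20.2) lay there. Downstream of NPPA the only heart peak lay in an intron of CLCN6, a chloride transporter gene (chr6:71911259-71911809; 7.51 and 17.2), and was shared with all lists but skeletal muscle. The liver peaks of the window fell mainly on that side, the strongest of adult liver (164 and 129, percentile 89.7) and of newborn liver (146 and 12.9, percentile 69.6) being 23.9 kb downstream of the NPPA start.

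The MYBPC3 window held 11 heart peaks, of which 6 were heart-only. Besides the 2 at the promoter, heart-only peaks lay in an intron of MYBPC3 at 1.5 kb (chr2:15249017-15249373; −log10 p of 17.7 and 10.4, percentile 68.1), in an intron of SPI1 at −5.09 kb (chr2:15242362-15242702; 11.6 and 26.3, percentile 71.8), and in MADD at 25.9 kb (10.4 and 12.4) and 26.7 kb (6.4 and 9.65). The strongest heart peak of the window lay 10.2 kb into the gene, in another intron of MYBPC3 (chr2:15257225-15258352), with −log10 p of 37.7 and 24.8 at percentile 88.1. Kidney alone shared it, by a peak of 5.73 and 5.74 at percentile 37.7. A heart peak over a coding exon at 17.1 kb (5.56 and 5.66) was weak and was shared with kidney, newborn liver and adult liver. Adult liver had 14 peaks in this window, 4 of them in no newborn list, and its strongest (166 and 191, percentile 93.4) was the peak in SPI1 at −2.91 kb.

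**Figure D5:**
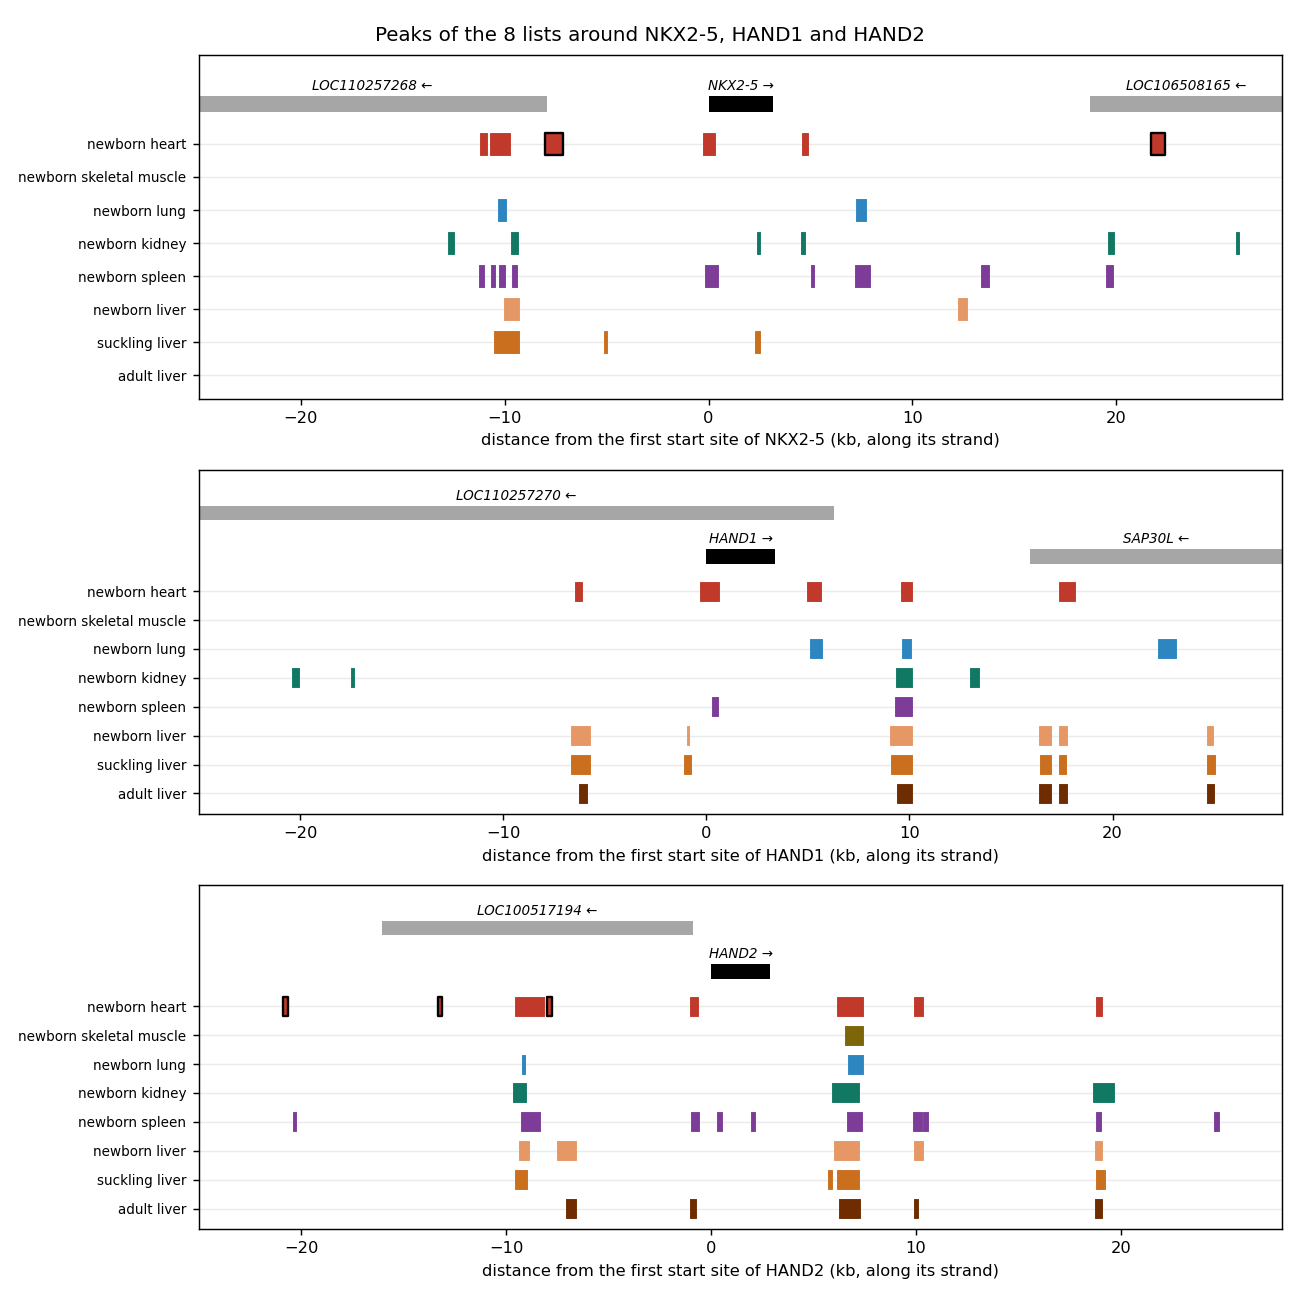
Peaks of the 8 lists (coloured blocks, 1 row per list) in the windows of NKX2-5, HAND1 and HAND2, placed by distance in kb from the first start site along the gene's strand. Black bars are the 3 genes, grey bars are neighbouring genes, and a black frame marks heart-only peaks, of which NKX2-5 has 2, HAND1 has 0 and HAND2 has 3.

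The NKX2-5 window held 6 heart peaks. Both heart-only peaks lay away from the gene, at −7.27 kb (chr16:51077985-51078855; −log10 p of 6.06 and 11.8, percentile 40.7) and at 22.0 kb in an intron of the non-coding RNA gene LOC106508165 (chr16:51107699-51108426; 14.6 and 16.1, percentile 78.2). The peak at −10.4 kb (chr16:51075286-51076288; 15.8 and 22.8, percentile 80.2), over an exon of the non-coding RNA gene LOC110257268, overlapped peaks of lung, spleen, newborn liver and suckling liver. Spleen had 9 peaks in this window, more than heart, and its promoter peak was the strongest of them by far, the next (16.1 and 15.1, percentile 74.0) being at 7.42 kb where heart had none. Kidney had 6 peaks, all at or below percentile 58.8, and lung and newborn liver 2 each.

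The HAND2 window held 8 heart peaks. The strongest (chr14:16466240-16467502; −log10 p of 44.1 and 25.1, percentile 88.2), between genes at 6.75 kb, lay in a region accessible in all 8 lists, where skeletal muscle had its only peak of the window (20.9 and 28.6, percentile 77.1). The next distal peak, at 9.99 kb (chr14:16469984-16470454; 20.5 and 20.5, percentile 85.1), was shared with spleen (19.5 and 13.9), newborn liver and adult liver. The 3 heart-only peaks were weak, at percentiles 28.6, 26.5 and 4.01, and lay at −20.8, −13.2 and −7.84 kb, the latter 2 in LOC100517194. Of the other heart peaks of this window only the one at 19.0 kb (5.81 and 4.94, percentile 24.2), which 5 other lists shared, ranked as low.

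The HAND1 window held 5 heart peaks and none was heart-only. Its strongest heart peak (chr16:68697337-68698146; −log10 p of 17.7 and 11.5, percentile 71.7) lay at 17.6 kb over an exon of SAP30L, a gene for a subunit of a histone deacetylase complex, and was shared with all 3 liver stages. The heart peak at 9.81 kb (5.79 and 11.6, percentile 36.3) lay in a region that 7 lists shared and skeletal muscle did not, and which ranked far higher elsewhere, at percentile 95.6 in newborn liver, 96.2 in suckling liver, 89.0 in kidney and 84.0 in spleen. The heart peak at 5.27 kb (5.29 and 20.3) was shared with lung alone. No heart peak of this window had an IDR of 0.05 or lower, whereas each of the other 4 windows held at least 2 such peaks.

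Across the 3 liver stages none of the 6 genes kept a promoter peak throughout. At NPPB a peak was present in suckling liver alone, at HAND1 in newborn and suckling liver, and at HAND2 in adult liver alone, while NPPA, NKX2-5 and MYBPC3 had none at any stage. The liver promoter peaks ranked low among the genes with a promoter peak in the same list. HAND1 was at percentile 2.88 in newborn liver and 11.4 in suckling liver. NPPB was at 20.4 in suckling liver and HAND2 at 14.1 among the 13626 genes of adult liver. The HAND2 peak was lost when all lists were shortened to the same number of top peaks, by whichever replicate they were ranked. Each stage is 1 list from 2 animals, so differences between stages were not tested.

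In the wider natriuretic pathway most promoters were accessible in every tissue. All 9 genes of a list of a further natriuretic peptide (NPPC), processing enzymes, receptors and effectors had a heart promoter peak (67.9% of all genes), but 8 of the 9 also had a promoter peak in all 7 other lists. MME, the gene of a peptidase that degrades natriuretic peptides, was the exception, with none in spleen and in suckling and adult liver. FURIN, a protease that cleaves pro-peptides, had the only heart-only promoter peak of this list (1.72% of all genes). Kidney and spleen also had promoter peaks of their own there. The strongest promoter peak of FURIN ranked at percentile 47.9 in heart and between 36.9 and 83.3 in the other lists. CORIN, the protease that activates atrial natriuretic peptide, was at percentile 89.6 in heart, 92.0 in kidney and 96.3 in suckling liver.

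Among the NK2 relatives of NKX2-5, 1 of 6 had a heart promoter peak (67.9% of all genes), NKX2-8, at percentile 19.2 and in no other list. A heart-only promoter peak was found at 1.72% of all genes. NKX2-1, a factor of lung and thyroid, had promoter peaks in lung (76.8) and kidney (60.8) only, and NKX2-3, a factor of spleen and gut, ranked highest in spleen (96.3). NKX2-6 had a peak in kidney alone (6.05), and NKX2-2 and NKX2-4 had none in any list. Of the basic helix-loop-helix relatives of the HAND genes, 7 of 8 had a heart promoter peak (67.9% of all genes). The count was also 7 of 8 in lung, kidney, spleen, newborn liver and suckling liver (68.8% to 75.1% of all genes). TAL1, a blood and endothelial factor, had the only heart-only promoter peak of these genes (1.72% of all genes). Kidney and spleen also had promoter peaks of their own there. The strongest promoter peak of TAL1 ranked at percentile 16.2 in heart and 89.6 in spleen.

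Of the relatives of MYBPC3, MYBPC1, the slow skeletal form, had a promoter peak in skeletal muscle alone, at percentile 94.9. MYBPC2, the fast skeletal form, had one in all 8 lists, at percentile 64.1 in heart and 74.0 in muscle, below lung (86.0), suckling liver (81.4) and kidney (80.9). Of 15 matched sarcomere genes, 12 had a promoter peak in heart (67.9% of all genes) and 13 in skeletal muscle (61.4%). The other newborn lists had 6 to 9, with 68.8% to 75.1% of all genes. Heart-only promoter peaks were found at MYL7, ACTC1 and TNNI3 (1.72% of all genes), and skeletal muscle likewise had peaks of its own at 3 genes, MYBPC1, MYL2 and MYL4. MYL7, the atrial myosin light chain gene, was at percentile 83.4 in heart with no promoter peak in any other list, whereas ACTC1 and TNNI3, for cardiac actin and cardiac troponin I, had further promoter peaks in other lists. MYH7 and MYL2, the myosin heavy and light chain genes of ventricle and slow muscle, had no heart promoter peak. MYL3, another myosin light chain gene of the list, was at percentile 89.9 in heart and 69.1 in skeletal muscle, with no promoter peak elsewhere. Which part of the heart was sampled was not tested by these genes. All 16 partner regulators had a promoter peak in heart (67.9% of all genes). The counts were 15 in newborn liver (73.5%), 14 in kidney (75.1%), 13 in lung (70.4%), 12 in spleen (68.8%) and 10 in skeletal muscle (61.4%). A heart-only promoter peak was found at 6 of the 16 (1.72% of all genes), namely GATA4, GATA5, TBX5, TBX20, TBX18 and MEF2C. Peaks of a single newborn list were also found in kidney, at TBX5 and IRX4, and in newborn liver, at GATA4 and GATA6. Of the 6, GATA5 alone had no promoter peak in another list (percentile 14.4 in heart). These lists were put together with earlier results of the same data known, and the study itself named TBX18.

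The genes with promoter patterns nearest to those of the 6 genes were sought over the 8 list percentiles, by Euclidean distance, among the other 13278 genes with a heart promoter peak. NPPA was nearest to LOC102165335 (distance 2.21), CHGA (2.41) and RNF207 (2.75), genes whose heart promoter peaks ranked between 53.2 and 57.7 and which had at most a very weak peak elsewhere. CHGA encodes chromogranin A, a protein of secretory granules. NKX2-5 was nearest to LOC102158193 (7.25), GIMD1 (32.4) and EGR4 (38.7), all with peaks in heart and spleen. HAND2 was at distance 0.0 from LOC100517194, which shares its peak, and then nearest to LOC102158193 (41.5) and NKX2-5 (42.0). MYBPC3 was nearest to LOC110260492 (20.1), QRFPR (40.4) and SERTM1 (46.6), which have peaks in muscle, lung and kidney as well. The muscle, lung and kidney values of MYBPC3 come from the peaks in SPI1 that reach 47, 25 and 16 bp into its promoter span. NPPB was nearest to LOC100525024 and PHF24 (16.9 each, with the same 8 values) and CSMD1 (20.7), and HAND1 to IL1RL1 (26.5), PAX9 (29.2) and LOC100517477 (31.0).

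Motif letters in the printed promoters differed between the genes. Matches to AGATAA were present within 250 bp upstream of NPPA, NPPB and MYBPC3, 3 of the 6 genes, and in 8.07% of all such upstream windows. In NPPA the GATA, T-box and NKX2 matches ended at −237, −207 and −198 bp, all 3 inside the heart-only peak, and T-box and NKX2 matches were present in 2.52% and 8.05% of all upstream windows. In NPPB a pair of TEAD matches ended at −135 and −102 bp and the GATA match at −81 bp, in the stretch that no other list covered, and a TEAD match was present in 10.3% of all upstream windows. In MYBPC3 a MEF2 match ended at −52 bp and the GATA match at −26 bp, and 2.55% of all upstream windows held a MEF2 match. NKX2-5, HAND1 and HAND2 had none of the 7 motifs in the printed sequence, and none was found in the 200 bp of the peak upstream of NPPB.

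Over 200 bp around their summits, 7 of the 36 heart peaks of the windows (19.4%) held AGATAA, against 10.7% of all heart peaks and 20.8% of all heart-only peaks. The HAND E-box was held by 6 (16.7%; 15.1% of all heart peaks), T-box and TEAD motifs by 3 each (8.33%; 3.05% and 12.7%), NKX2 and MEF2 motifs by 2 each (5.56%; 9.23% and 4.33%), and the CArG box by 1 (2.78%; 1.18%), the NPPA promoter peak. That peak held 4 of the 7 motifs, more than any other heart peak of the windows. At HAND1, 3 of the 5 heart peaks held the HAND E-box. These are matches of letters, not measured binding.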

How the data were processed

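Per the labels and the methods of the study, nuclei of snap-frozen tissue were profiled by ATAC-seq. The authors aligned reads to Sscrofa11.1 with Bowtie2, filtered the alignments (mitochondrial reads, low mapping quality, duplicates; SAMtools 1.3.1), called peaks in each replicate with MACS2 and matched the 2 replicates of a group by IDR. The deposited −log10 p values and the IDR score, of which 540 stands for an IDR of 0.05, were used as given. Columns of signal and q-value held a constant and were not used. The numbers of reads behind the lists were not used here.

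Overlaps of at least 1 bp, percentiles within each list and motif matches were computed with Python 3.11.15, pandas 2.3.3, NumPy 2.4.6 and samtools 1.23.1 against the RefSeq annotation, which held all 6 genes. Peak starts, counted from 0 in the deposited files, are printed counted from 1. The overlap code was tested on 400 simulated promoters, where it recovered 200 of 200 planted ones and called 0 others. The genes, gene lists and motifs were chosen with earlier results of these data known. By the naming rule, the text names the 6 genes, their protein-coding neighbours, list genes with a heart-only promoter peak, relatives of the same family and the 3 genes nearest in pattern to each, and gives positions for the strongest promoter peak and heart-only peak of a locus and the strongest peak of each other list. Other peaks, the non-coding neighbours and MME, CORIN, MYH7, MYL2, MYL3, MYOD1, MYF5, ACTN2, ACTN3 and CKM were chosen after their values were seen. MYH6 and MYH3 were not matched in the annotation. MACS2 calls from each replicate alone were not used here.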

Additional observations from a re-analysis of the deposited data

How the results depend on the processing

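Counts were recomputed under other settings, and 27 of 38 values stayed within 1.5 times the reported count or, for the median window percentile, within 1 SD of the loci (5.38). The 6 heart promoter peaks became 3 (38.8% of all genes) where each list was limited to peaks with an IDR of at most 0.05. Under the same limit the genes with a heart-only promoter peak fell to 1 (0.731% of all genes), namely MYBPC3, which the study itself had named. The heart-only window peaks fell to 5 of 11 (17.8% of all heart peaks), and the adult liver promoter peaks to 0 (56.7% of all genes). With 50% of a peak's length required to overlap, 4 genes (NPPA, NPPB, HAND1 and MYBPC3) had a heart-only promoter peak (2.4% of all genes). There were then 20 heart-only window peaks of 36 (22.1% of all heart peaks). With flanks of 50 kb there were 20 such peaks of 61 (32.8%). Without peaks at other protein-coding genes, an alternative chosen after seeing the data, there were 8 of 24 (33.3%). Both stand against 17.4% of all heart peaks. With every list shortened to its 57126 strongest peaks, the adult liver count was 0 (58.1% of all genes). In that setting 3 genes (HAND1 added) had a heart-only promoter peak (2.24% of all genes).

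Without replicate 1 or replicate 2, each list was ranked by the other replicate alone and shortened to the same length. Heart promoter peaks then numbered 6 and 6 (63.9% and 62.3% of all genes). Genes with a heart-only one numbered 3 and 3 (2.45% and 2.2%), as with the shortening alone. Heart-only window peaks numbered 19 of 33 and 14 of 31 (22.0% and 21.7% of all heart peaks). The median window percentile was 91.1 and 91.8. Adult liver promoter peaks numbered 0 and 0 (61.5% and 58.3% of all genes), again as with the shortening alone. No paired analysis was possible because no result comes from a test. The cause of these shifts was not tested. Peak lists hold no counts, so a missing peak means that none was matched between replicates, not that a promoter was closed.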
